A study of Arabidopsis thaliana with 12 samples.

Results

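The comparison described here is the effect of BLM in Arabidopsis thaliana seedlings that also received INA: the 3 BLM+INA arrays against the 3 INA arrays, which are 6 of the 12 arrays of the series. All seedlings were wild type (labelled WT), were grown on MS plates and were profiled whole, with 3 biological replicates per group. The 4 groups were BLM+INA (4 µg/ml BLM and 10 µM INA), INA alone (10 µM), BLM alone (4 µg/ml) and CK (neither agent). The age of the seedlings and the length of the treatment are not given in the sources used here. The other 6 arrays, BLM and CK, entered the fit and served as the comparison of BLM without INA.

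BLM is the usual abbreviation of bleomycin, an agent that breaks both strands of DNA, and INA is a synthetic immune inducer that acts in the same pathway as salicylic acid. In plants, broken DNA is known to activate a transcriptional programme that raises repair genes, lowers genes of mitosis and slows growth, most visibly in dividing root tissue. Salicylic acid and its analogues are known to act through NPR1 and WRKY transcription factors on genes of systemic acquired resistance, the immune state that spreads through a plant after infection. The series title names DNA damage and an immune inducer together, and the comparison answers what the first adds when the second is already present.

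Each value below is a log2 value that the authors centred on the median of its probe set over the 12 arrays, so 0 is that median and 1 unit is a doubling. This step took away the expression levels, so levels of different genes cannot be compared. Changes are BLM+INA minus INA on the log2 scale, ± SE, with n = 3 arrays per group. All p values come from limma (two-sided) and were adjusted by the Benjamini-Hochberg method over 22746 probe sets, and a gene rose or fell where its adjusted p was under 0.05. Counts over lists used a second fit with 1 value per gene over 13286 genes. All lists were chosen with earlier results of these data known. Their counts beside the share of all genes are therefore a description and no independent evidence.

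With BLM on top of INA, 4274 of 22746 probe sets passed (18.8%). Of these, 2108 rose (9.27%) and 2166 fell (9.52%), and 632 changed at least 2-fold, 344 upward and 288 downward. The median change over all probe sets was 0.0135. In the fit over genes, 2107 of 13286 passed (15.9%), 1053 upward (7.93%) and 1054 downward (7.93%). The gene table named exactly 1 gene for 2215 of the 4274 probe sets, so 2059 changes have no name here. These include 20 of the 30 largest rises and 15 of the 30 largest falls. Many listed genes had no value under their name either, so counts over lists cover the measured part. Of the genes listed, 8 of 54 were measured for salicylic acid, 7 of 68 for WRKY factors and 7 of 35 for pattern-triggered immunity. For jasmonate and ethylene 4 of 36 were measured, and for anthocyanin 5 of 29. For photosynthesis it was 8 of 48, and for other root tissue 3 of 40. G2 and mitosis had 26 of 76, and root hair 18 of 75.

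Array quality overlapped between the groups. Array medians lay between -0.0103 and 0.0207 in BLM+INA and between -0.0208 and 0.0255 in INA. The centred 3′ minus 5′ signal of the actin control, a measure of RNA integrity, was -0.215, 0.139 and 0.60 on the BLM+INA arrays and -0.346, -0.207 and 0.143 on the INA arrays. For the GAPDH control it was -0.414, -0.07 and 0.233 in BLM+INA and 0.015, 0.038 and 0.167 in INA. Compared by replicate number, the actin value was higher in BLM+INA each time, and the GAPDH value only for replicate 3. Markers of green tissue lay slightly lower with BLM: the mean of 8 photosynthesis genes was -0.088, -0.095 and -0.037 on the BLM+INA arrays and 0.008, 0.042 and 0.058 on the INA arrays, with no overlap. Of these 8 genes 2 fell, beside 7.93% of all genes lower. They were the photosystem I subunit gene PSAN (-0.38 ± 0.09, adjusted p = 0.00753) and the antenna protein gene LHCB4.2 (-0.31 ± 0.09, adjusted p = 0.0221 by limma). LHCB4.2 lost its call without INA replicate 1 or BLM+INA replicate 1. The 3 measured markers of other root tissue did not pass, PYK10 at 0.01 ± 0.10, AT5G48940 at -0.02 ± 0.09 and CR4 at -0.30 ± 0.12. The part of such shifts in tissue makeup in the results below was not tested. In whole seedlings, fewer cells of a type and less RNA per cell cannot be told apart.

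The 2 largest named rises were those of AT5G60250 and AT3G45730, both listed for the response to double-strand breaks. AT5G60250 had 2.27, 2.26 and 2.19 on the BLM+INA arrays, against -2.34, -2.09 and -2.56 on the INA arrays. The BLM+INA arrays lay far above the INA arrays and close to each other, and the change was 4.57 ± 0.13 (limma, adjusted p = 8.13e-13), or 23.8-fold. AT3G45730 had 2.79, 2.62 and 2.85 in BLM+INA and -1.07, -1.03 and -0.71 in INA, a rise of 3.69 ± 0.21 (adjusted p = 1.47e-09), or 12.9-fold. AT4G22960, of the same list, had 1.46, 1.84 and 1.90 in BLM+INA and -1.11, -1.04 and -1.27 in INA, a rise of 2.87 ± 0.12 (adjusted p = 1e-10). For each of the 3 genes, every BLM+INA array lay above every INA array. Over all probe sets, 33.7% had no overlap in either direction.

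Of 45 genes listed as targets of the DNA damage response, 13 were measured under their own name, and 8 of them rose while 0 fell, beside 7.93% of all genes in each direction. The list median was 0.965, against 0.018 for all genes. AT2G18600 rose by 2.35 ± 0.13, AT2G45460 by 1.93 ± 0.11 and AT3G42860 by 1.23 ± 0.14. Nearest to the threshold among the others were AT1G20750 (0.32 ± 0.14, adjusted p = 0.121) and AT5G66985 (-0.18 ± 0.11, adjusted p = 0.319). This list was compiled partly from genes known to respond to DNA damage, so its direction is no independent evidence. Genes of the repair machinery itself had smaller changes. ATLIG4, the ligase that joins broken DNA ends, had 0.27, 0.14 and 0.24 in BLM+INA and -0.30, -0.35 and -0.05 in INA, a rise of 0.45 ± 0.10 (adjusted p = 0.00496) without overlap. RAD4 fell by 0.32 ± 0.10 (adjusted p = 0.0229), a call lost in 4 of 12 fits that each left out 1 array (range -0.398 to -0.264). All 4 losses came without an INA or BLM+INA array. For every change on INA, the 6 fits without a BLM or CK array could alter the spread but not the change itself. The other 6 of 8 measured genes listed for DNA damage and repair did not pass. Among them were RAD5, a helicase of damage tolerance (0.06 ± 0.13), RAD51B (0.04 ± 0.12), RAD9 (0.30 ± 0.17) and RECQ4A (-0.26 ± 0.14). The median of these 8 genes was 0.048. Of the 8, ATLIG4 and RAD5 were also among the 13 damage response targets above.

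**Figure D1:**
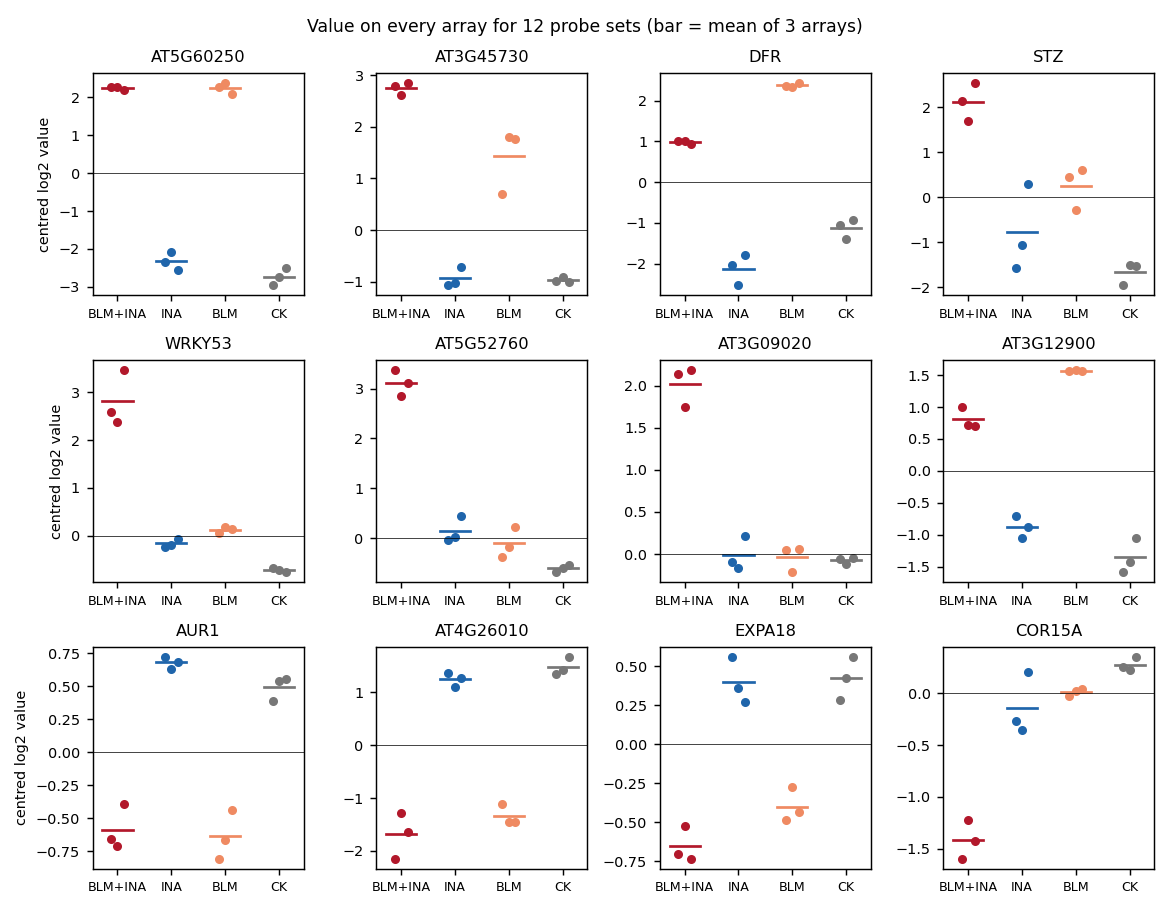
Centred log2 value (vertical axis) of 12 probe sets on all 12 arrays, 1 point per array and 1 bar for the mean of each group, with the groups BLM+INA, INA, BLM and CK from left to right. AT5G60250 was high in both groups with BLM, WRKY53, AT5G52760 and AT3G09020 were high in BLM+INA above all other groups, and AUR1, AT4G26010 and EXPA18 were low in both groups with BLM.

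When BLM was added to INA, 6 of 8 measured genes of salicylic acid signalling rose, beside 7.93% of all genes. Of the genes of intracellular immune receptors 12 of 42 rose, and of the calmodulin-like genes 9 of 24. Most members of the receptor and calmodulin-like lists did not pass, and neither did any of the 4 measured genes of the jasmonate branch. The transcription factor gene WRKY53, which acts in salicylic acid signalling and senescence, had 2.59, 2.39 and 3.46 on the BLM+INA arrays and -0.23, -0.19 and -0.06 on the INA arrays, a rise of 2.97 ± 0.18 (limma, adjusted p = 4.84e-09), or 7.85-fold. In the list of salicylic acid and systemic acquired resistance 0 genes fell, and the median was 0.78. SAG101, a partner of EDS1 in signalling from immune receptors, had 1.29, 0.50 and 1.08 in BLM+INA and -0.62, -0.29 and -0.18 in INA, a rise of 1.32 ± 0.17 (adjusted p = 2.85e-05). GRX480, a glutaredoxin that links salicylic acid and jasmonate signalling, had 0.84, 0.45 and 0.67 in BLM+INA and 0.02, 0.00 and 0.00 in INA, a rise of 0.64 ± 0.13 (adjusted p = 0.00218). The arrays of the groups did not overlap for any of these genes, as for 33.7% of all probe sets. AT5G52810 rose by 0.93 ± 0.16, and UGT76B1, a glucosyltransferase that modulates salicylic acid signalling, by 0.48 ± 0.14. The call of UGT76B1 was lost in 3 of 12 fits. The salicylic acid glucosyltransferase gene UGT74F1 (-0.12 ± 0.12) and the methyltransferase gene BSMT1 (0.07 ± 0.09) did not pass.

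Among other WRKY factors, WRKY47 rose by 0.58 ± 0.12, WRKY22 by 0.55 ± 0.14 and WRKY20 by 0.41 ± 0.12. With WRKY53 these made 4 of 7 measured WRKY genes, beside 7.93% of all genes higher, and the list median was 0.41. WRKY6 stood at the threshold, with 0.41 ± 0.14 and adjusted p = 0.0499 over probe sets but 0.0518 over genes, and WRKY42 (-0.16 ± 0.11) and ZAP1 (0.12 ± 0.10) did not pass. Without 1 array at a time, WRKY22 lost its call in 3 of 12 fits and WRKY20 in 4.

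Genes of pattern-triggered immunity, the first layer of defence at the cell surface, rose in 5 of 7 cases, beside 7.93% of all genes. The median was 0.447. STZ, a zinc finger transcription factor of stress responses, had 2.14, 1.69 and 2.54 in BLM+INA and -1.58, -1.05 and 0.29 in INA, a rise of 2.90 ± 0.34 (adjusted p = 8.61e-06). The INA arrays of STZ were widely spread but all lay below the BLM+INA arrays. The ubiquitin ligase gene PUB24 rose by 0.76 ± 0.13 and PUB23 by 0.43 ± 0.15, while PUB22 of the same group stood at 0.00 ± 0.11 (adjusted p = 0.992). EFR, the receptor for the bacterial elongation factor EF-Tu, rose by 0.45 ± 0.13, and the receptor-associated kinase gene BIK1 stood at 0.15 ± 0.13. The call of PUB23 was lost in 8 of these 12 fits and that of EFR in 4.

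Intracellular receptors were represented by 42 measured genes with TIR or nucleotide-binding domains, of which 12 rose and 0 fell. Of all genes 7.93% rose and 7.93% fell. Most changes in this list were small, with a median of 0.178. The mean of the 42 genes was 0.368, 0.237 and 0.276 on the BLM+INA arrays and 0.024, -0.011 and -0.07 on the INA arrays, without overlap. The largest rises were those of 3 TIR genes with neighbouring locus numbers, AT1G72900, AT1G72920 and AT1G72940. AT1G72900 had 2.39, 1.72 and 2.19 in BLM+INA and 0.08, -0.05 and 0.68 in INA, a rise of 1.86 ± 0.19 (limma, adjusted p = 1.7e-06). AT1G72920 rose by 1.71 ± 0.27 and AT1G72940 by 1.43 ± 0.16. AT1G57630 (1.04 ± 0.17), AT3G04210 (0.80 ± 0.18) and AT1G63750 (0.66 ± 0.11) followed, and AT5G40910 (0.27 ± 0.12, adjusted p = 0.0785) was nearest to the threshold among the others. With an adjusted p of 0.01 the count was 7.

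Ankyrin-repeat membrane proteins, the family of the cell death regulator ACD6, rose in 4 of 13 cases (median 0.171), beside 7.93% of all genes. AT1G10340 had 2.17, 2.02 and 1.99 in BLM+INA and 0.12, 0.32 and 0.39 in INA, a rise of 1.78 ± 0.13 (adjusted p = 2.96e-08). AT4G11000 had 1.47, 1.27 and 1.49 in BLM+INA and 0.07, 0.01 and 0.22 in INA, a rise of 1.31 ± 0.12 (adjusted p = 5.01e-07). Both genes were tight within each group and did not overlap. AT4G03450 (0.56 ± 0.15) and AT5G54720 (0.51 ± 0.11) also rose, the first with its call lost in 2 of 12 fits, and AT4G14390 stood at 0.40 ± 0.14 (adjusted p = 0.0613).

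Of 24 measured calmodulin-like genes, which code for calcium sensors, 9 rose and 1 fell (median 0.184), beside 7.93% of all genes in each direction. AT3G47480 had 1.62, 1.23 and 1.53 in BLM+INA and -0.42, -0.02 and 0.02 in INA, a rise of 1.60 ± 0.15 (adjusted p = 7.03e-07). AT5G39670 rose by 1.35 ± 0.19, AT3G01830 by 1.18 ± 0.11, AT3G25600 by 1.03 ± 0.22, AT3G10190 by 0.93 ± 0.14 and AT2G41410 by 0.88 ± 0.12. The gene that fell was CML30 (-0.44 ± 0.13, adjusted p = 0.0218), a call lost in 3 of 12 fits. CML41 (0.41 ± 0.15) and AT1G32250 (0.28 ± 0.11) did not pass.

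Proteins with a heavy-metal-associated domain gave 2 of the 15 largest named rises, both from a short run of locus numbers. Of 15 measured genes 5 rose and 3 fell, beside 7.93% of all genes in each direction, with a median of 0.184. AT5G52750 had 3.12, 2.86 and 3.46 on the BLM+INA arrays and -0.11, -0.28 and 0.50 on the INA arrays, a rise of 3.11 ± 0.18 (adjusted p = 2.79e-09), or 8.62-fold. AT5G52760 had 3.37, 2.85 and 3.10 in BLM+INA and -0.04, 0.04 and 0.45 in INA, a rise of 2.96 ± 0.16 (adjusted p = 1.13e-09). AT5G52740 had 1.65, 0.91 and 1.83 in BLM+INA and 0.02, -0.06 and -0.14 in INA, a rise of 1.52 ± 0.19 (adjusted p = 1.27e-05). The next locus of the run, AT5G52770, had 0.11, -0.04 and 0.20 in BLM+INA and -0.02, -0.12 and -0.01 in INA. Its groups overlapped and it did not pass (0.15 ± 0.10, adjusted p = 0.364). Elsewhere in the list, AT5G60800 rose by 0.90 ± 0.10 and AT5G03380 by 0.51 ± 0.10. AT5G50740 fell on both of its probe sets, by 1.11 ± 0.13 and 1.01 ± 0.11. AT5G24580 (-0.40 ± 0.11) and AT1G51090 (-0.43 ± 0.13) also fell, with calls lost in 2 and 4 of 12 fits.

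RING1, a ubiquitin ligase of programmed cell death, had 2.25, 1.93 and 2.03 in BLM+INA and -0.09, -0.71 and 0.10 in INA, a rise of 2.3 ± 0.19 (adjusted p = 1.5e-07). BZIP60, the transcription factor of the unfolded protein response, had 0.79, 0.65 and 0.79 in BLM+INA and -0.35, -0.32 and 0.00 in INA, a rise of 0.97 ± 0.11 (adjusted p = 9.1e-06), while the other 5 of 6 measured genes of the endoplasmic reticulum did not pass. Of 36 genes listed for the jasmonate and ethylene branch of defence, 4 were measured, and 0 of these passed by limma. The defensin list held 3 of these 4. The defensin gene PDF1.2 stood at -0.09 ± 0.26, PDF1.2b at 0.14 ± 0.26, THI2.1 at 0.05 ± 0.12 and LCR67 at 0.02 ± 0.09. The replicate spread of PDF1.2 and PDF1.2b was large, which limits what could be detected for them. A further defensin-type gene, LCR66, stood at 0.12 ± 0.10. Further large rises were outside the lists, AT5G11410 by 2.53 ± 0.13, AT1G65500 by 2.38 ± 0.52, AT3G60420 by 2.37 ± 0.21 and AT3G10930 by 2.26 ± 0.30. Another probe set for AT3G60420 gave -0.02 ± 0.10. AT1G65500 had INA arrays of -1.85, -1.60 and 0.40 and lost its call with robust or unmoderated variances.

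**Figure D2:**
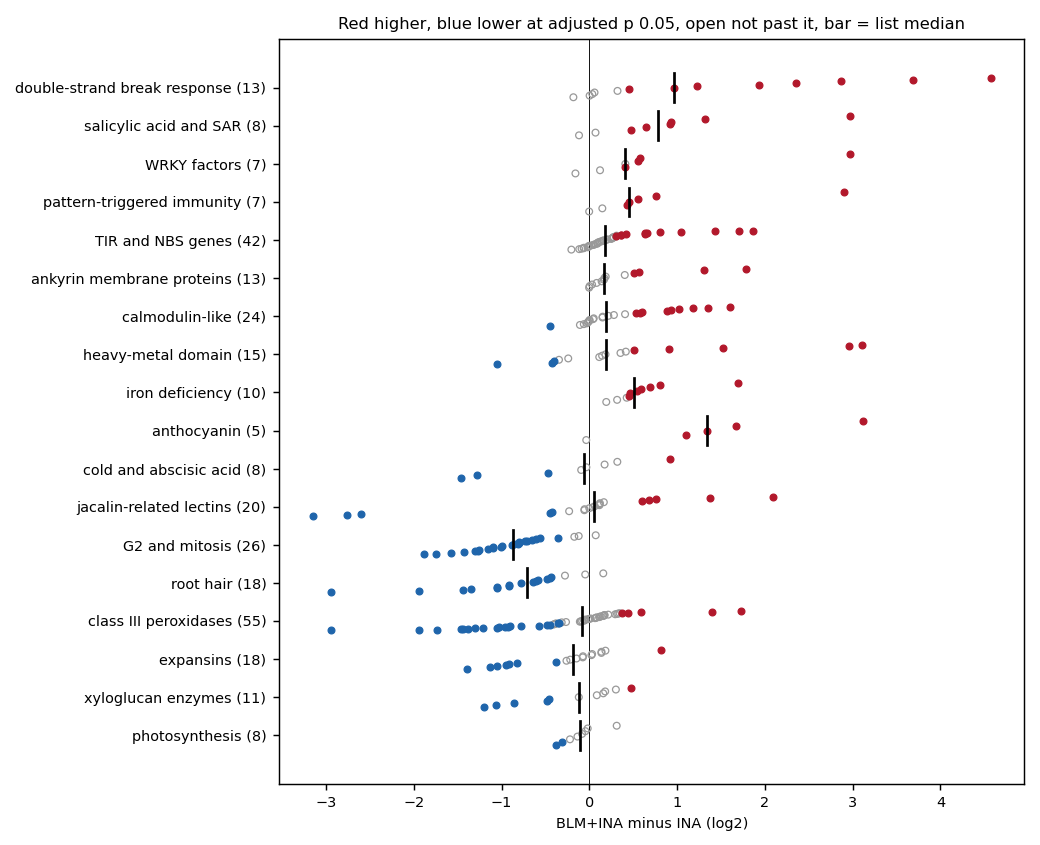
Change with BLM on top of INA (BLM+INA minus INA, log2, horizontal axis) of each measured gene in 18 lists, with the number of genes in parentheses. Filled points passed the adjusted p of 0.05 (red higher, blue lower), open points did not, and the black bar is the list median, which was 0.965 for the double-strand break response and -0.867 for G2 and mitosis.

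Metabolic genes were also among the rises. Anthocyanin synthesis, which colours stressed seedlings, rose in 4 of 5 measured genes, beside 7.93% of all genes, with a median of 1.342. DFR, the dihydroflavonol reductase, had 1.02, 1.01 and 0.94 on the BLM+INA arrays and -2.05, -2.52 and -1.80 on the INA arrays, a rise of 3.11 ± 0.15 (adjusted p = 3.48e-10), or 8.65-fold. AT4G14090 rose by 1.67 ± 0.15, the glucosyltransferase gene UF3GT by 1.34 ± 0.16 and the acyltransferase gene AT5MAT by 1.1 ± 0.14, while UGT78D2 stood at -0.04 ± 0.10. ICL, the isocitrate lyase of the glyoxylate cycle, had 1.71, 1.68 and 1.07 in BLM+INA and -0.92, -1.04 and -0.84 in INA, a rise of 2.42 ± 0.16 (adjusted p = 8.86e-09).

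Genes of the response to iron deficiency rose in 7 of 10 cases, beside 7.93% of all genes, with a median of 0.504. AT3G12900, an oxygenase of coumarin synthesis, had 1.0, 0.72 and 0.71 in BLM+INA and -0.71, -1.05 and -0.87 in INA, a rise of 1.69 ± 0.13 (adjusted p = 8.02e-08). AT3G07720 rose by 0.81 ± 0.13, AT5G05250 by 0.69 ± 0.17, the transcription factor gene PYE by 0.59 ± 0.11, AT3G13610 by 0.55 ± 0.11 and AT1G18910 by 0.45 ± 0.11. AT1G74770 had 1 probe set past the threshold (0.50 ± 0.13) and 1 that was not (0.42 ± 0.15, adjusted p = 0.0537). BHLH101, another factor of the response, had overlapping arrays and stood at 0.43 ± 0.23. AT1G47400 stood at 0.32 ± 0.15 and AT3G43660 at 0.19 ± 0.12. AT5G05250 lost its call without INA replicate 2.

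Of 24 measured cytochrome P450 genes 6 rose and 1 fell, of 12 glutathione transferases 1 rose and 1 fell, and of 45 glycosyltransferases 5 rose and 2 fell, beside 7.93% of all genes in each direction. The shares of glutathione transferases and glycosyltransferases that changed were near the 15.9% of all genes. Most of the 24 P450 genes were of the CYP71B subfamily, and so were all 6 that rose. CYP71B23 rose by 1.05 ± 0.13, CYP71B36 by 0.88 ± 0.14 and CYP71B5 by 0.73 ± 0.14, and CYP718 fell by 0.68 ± 0.12. GSTU25 rose by 0.74 ± 0.15 and was the 1 gene of 6 in the list of xenobiotic response that passed, and GSTU28 fell by 0.77 ± 0.12. UGT87A2 rose by 1.05 ± 0.11 and UGT71C1 fell by 0.87 ± 0.18. In the senescence list of 2 genes, SAG29 rose by 0.62 ± 0.12.

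Genes of G2 and mitosis fell together. Of 26 measured genes, 23 fell and 0 rose, beside 7.93% of all genes lower, and the median was -0.867. The mean of the 26 genes was -0.429, -0.44 and -0.429 on the BLM+INA arrays and 0.50, 0.361 and 0.584 on the INA arrays, without overlap. AUR2, an Aurora kinase that acts on chromosomes and the division plane, had -0.64, -0.80 and -0.63 in BLM+INA and 0.55, 0.46 and 0.84 in INA, a change of -1.31 ± 0.15 (limma, adjusted p = 4.77e-06). Its paralogue AUR1 had -0.66, -0.71 and -0.39 in BLM+INA and 0.72, 0.64 and 0.69 in INA, a change of -1.27 ± 0.11 (adjusted p = 3.57e-07). The chromatin protein gene 3xHMG-box2, whose product binds mitotic chromosomes, fell by 1.43 ± 0.14. AT5G45700 (-1.88 ± 0.16), AT3G02640 (-1.75 ± 0.15) and AT5G16250 (-1.57 ± 0.11), listed for their expression with mitotic genes, fell most. The genes that did not pass were AT3G45850 (0.07), ATSMC2 (-0.12) and AT1G76740 (-0.17). AT3G15550 fell on 1 probe set by 1.04 ± 0.14 and stood at -0.08 on the other.

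Of the microtubule and kinesin genes, 3 of 11 fell and 1 rose, beside 7.93% of all genes in each direction. TUB7 fell by 0.95 ± 0.10, KINESIN-12B, which acts at the division plane, by 0.65 ± 0.12 and TUB1 by 0.46 ± 0.12, the last with its call lost without INA replicate 1. TUA1 rose by 0.71 ± 0.12. Among 5 histone genes 2 fell, beside 7.93% of all genes lower. HTB2 fell by 0.78 ± 0.11 and the centromeric histone gene HTR12 by 0.48 ± 0.15, the latter call lost in 3 of 12 fits. Genes of DNA replication did not move together: of 5 measured, 2 rose and 1 fell, beside 7.93% of all genes in each direction. PRL, a subunit of the replicative helicase, fell by 0.47 ± 0.12, and the polymerase subunit gene POLA3 (0.37 ± 0.11) and AT1G55915 (0.35 ± 0.11) rose. PRL lost its call without INA replicate 1, POLA3 in 3 of 12 fits and AT1G55915 in 5.

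Most measured root hair genes fell, and so did a minority of the expansin and xyloglucan-modifying genes. Of 18 measured root hair genes, 15 fell and 0 rose, beside 7.93% of all genes in each direction, with a median of -0.711. The peroxidase gene AT4G26010 had -2.15, -1.27 and -1.64 on the BLM+INA arrays and 1.37, 1.11 and 1.27 on the INA arrays, a change of -2.94 ± 0.17 (adjusted p = 2.47e-09). INA arrays were 7.67-fold above BLM+INA arrays for this gene. AT3G49960 had -0.86, -0.99 and -1.24 in BLM+INA and 1.05, 0.93 and 0.76 in INA, a change of -1.94 ± 0.12 (adjusted p = 3.83e-09). AT3G01190 fell by 1.44 ± 0.14, AT5G04960 by 1.35 ± 0.15 and AT1G30870 by 1.05 ± 0.16. EXPA18, an expansin of root hair initiation, had -0.70, -0.52 and -0.73 in BLM+INA and 0.56, 0.36 and 0.27 in INA, a change of -1.05 ± 0.11 (adjusted p = 2.27e-06). AT3G54580 (-0.28 ± 0.13), XTH26 (0.16 ± 0.10) and AT1G26250 (-0.05 ± 0.12) were the 3 that did not pass. Several extensin-type genes of this list were measured by probe sets whose names mark them as shared with similar sequences, HRGP1 (-0.65 ± 0.17), AT1G23720 (-0.61 ± 0.15) and AT5G06630 (-0.58 ± 0.14), so their falls cannot be assigned to 1 gene each.

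Class III peroxidases, which build and loosen walls and make reactive oxygen, moved both ways. Of 55 measured genes, 19 fell and 5 rose, beside 7.93% of all genes in each direction, with a median of -0.082. The share that rose was near that of all genes. AT5G64100 had -0.80, -0.94 and -0.93 in BLM+INA and 0.90, 0.80 and 0.85 in INA, a change of -1.74 ± 0.09 (adjusted p = 1.13e-09), and AT4G11290 fell by 1.46 ± 0.12. In the other direction, AT4G36430 had 0.81, 0.69 and 0.80 in BLM+INA and -0.98, -1.12 and -0.78 in INA, a rise of 1.73 ± 0.14 (adjusted p = 9.61e-08). AT2G41480 rose by 1.39 ± 0.13, and AT1G68850, PRX52 and AT1G24110 were the other 3 rises, PRX52 (0.44) and AT1G24110 (0.37) with calls lost in 3 and 2 of 12 fits. AT5G24070 (adjusted p = 0.0515) and AT2G24800 (adjusted p = 0.0526) lay just outside the threshold. The root hair list and the peroxidase list share 5 genes.

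Expansins, which loosen the wall during growth, fell in 7 of 18 cases and rose in 1 (median -0.183). Of all genes 7.93% fell and 7.93% rose. EXPA15 had -0.46, -0.60 and -0.73 in BLM+INA and 1.09, 0.73 and 0.57 in INA, a change of -1.40 ± 0.14 (adjusted p = 1.14e-06). EXPA8 fell by 1.13 ± 0.12, EXPB1 by 0.95 ± 0.14, EXPA7 by 0.92 ± 0.12 and EXPB3 by 0.82 ± 0.12. EXPA9 fell by 0.38 ± 0.12, with its call lost in 4 of 12 fits, and the gene that rose was EXLA1 (0.82 ± 0.19, adjusted p = 0.00575). Of 11 xyloglucan-modifying genes 5 fell and 1 rose, beside the same 7.93% of all genes in each direction. XTH16 had -0.90, -0.49 and -0.45 in BLM+INA and 0.63, 0.45 and 0.69 in INA, a change of -1.20 ± 0.12 (adjusted p = 1.21e-06). XTH18 fell by 1.06 ± 0.13, XTH19 by 0.86 ± 0.14, XTH20 by 0.49 ± 0.11 and XTH21 by 0.46 ± 0.12, and EXGT-A3 rose by 0.48 ± 0.10. XTH21 lost its call in 2 of 12 fits.

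Jacalin-related lectins, a family of sugar-binding proteins, moved both ways, with 5 rises and 5 falls among 20 measured genes (median 0.051). Of all genes 7.93% rose and 7.93% fell. AT1G52070 had -2.05, -1.03 and -2.08 on the BLM+INA arrays and 1.16, 1.47 and 1.65 on the INA arrays, a change of -3.15 ± 0.24 (adjusted p = 6.45e-08), and INA was 8.87-fold above BLM+INA. Its neighbours by locus number AT1G52060 (-2.76 ± 0.16) and AT1G52050 (-2.60 ± 0.14) fell as well, while AT1G52000 of the same stretch rose by 1.37 ± 0.15. AT1G73040 had 0.88, 0.98 and 0.91 in BLM+INA and -1.28, -1.25 and -1.0 in INA, a rise of 2.1 ± 0.11 (adjusted p = 6.93e-10). JAL23 (0.76 ± 0.13), JAL22 (0.68 ± 0.10) and AT1G33790 (0.59 ± 0.12) were the other rises, and AT2G25980 (-0.44 ± 0.14) and AT1G19715 (-0.43 ± 0.11) the other falls. AT2G25980 lost its call in 3 of 12 fits and AT1G19715 in 2.

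The remaining large named falls were those of AT2G33850 (-2.60 ± 0.18), AT3G19430 (-2.57 ± 0.14), AT1G50060 (-2.49 ± 0.17), AT3G05600 (-2.38 ± 0.18) and AT5G54370 (-2.34 ± 0.27). The defensin-like gene PDF2.5 (-2.28 ± 0.19), AT1G19900 (-2.26 ± 0.14), AT1G66100 (-2.24 ± 0.22), AT3G16670 (-2.22 ± 0.20), AT4G39675 (-2.21 ± 0.17) and AT1G31690 (-2.12 ± 0.15) followed. A second probe set of AT1G31690 stood at -0.61 ± 0.15. The 15 largest rises and 15 largest falls were named only where the arrays of the groups did not overlap, which held for 33.7% of all probe sets.

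Cold and abscisic acid genes moved both ways. Of 8 measured genes 3 fell and 1 rose, beside 7.93% of all genes in each direction. COR15A, which protects chloroplast membranes in the cold, had -1.60, -1.23 and -1.42 in BLM+INA and -0.26, -0.35 and 0.21 in INA, a change of -1.28 ± 0.13 (adjusted p = 1.81e-06). COR15B had -1.29, -1.09 and -0.89 in BLM+INA and 0.20, 0.22 and 0.71 in INA, a change of -1.46 ± 0.14 (adjusted p = 6.67e-07). COR47 fell by 0.47 ± 0.11 and AT3G02480 rose by 0.92 ± 0.17.

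The same dose without INA was the measure of how far these changes were shared. BLM minus CK passed for 3790 probe sets (16.7%), 1905 higher (8.38%) and 1885 lower (8.29%), and it shares no array with BLM+INA minus INA. Of the 1905 probe sets raised by BLM alone, 1840 (96.6%) had a positive change on INA and 1206 (63.3%) passed there, and 1 fell. Of the 1885 lowered by BLM alone, 1837 (97.5%) had a negative change on INA and 1302 (69.1%) passed, and 4 rose. The 1206 were 57.2% of the probe sets raised on INA, and the 1302 were 60.1% of those lowered. The changes correlated across all 22746 probe sets (Pearson r = 0.816, a description, since probe sets are not independent samples).

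The falls of mitosis and root hair genes were present with INA and without it. AUR2 had -1.06, -1.01 and -0.46 on the BLM arrays and 0.48, 0.72 and 0.77 on the CK arrays, a change of -1.50 ± 0.15, beside -1.31 on INA. AT4G26010 had -1.11, -1.46 and -1.45 in BLM and 1.36, 1.43 and 1.67 in CK, a change of -2.82 ± 0.17, beside -2.94 on INA. In the fit over genes, 14.4% passed without INA, 7.33% higher and 7.11% lower. The G2 and mitosis list had a median of -0.867 on INA and -0.882 without it, with 23 genes lower each time. Root hair genes had medians of -0.711 on INA and -1.076 without it, with 15 and 16 genes lower. Of these 18 genes 14 had a positive difference, beside 5992 of 13286 genes in all. In both lists 0 genes differed between the settings by limma at an adjusted p of 0.05, beside 0.278% of all genes (0.203% above 0 and 0.0753% below 0), a share at which lists of this size would hold few calls. At an unadjusted p under 0.05, 1 mitosis gene lay below 0, and 4 root hair genes lay above 0 and 1 below. Of all 13286 genes, 454 lay above 0 and 516 below at that threshold. For expansins the medians were -0.183 on INA and 0.099 without it, with 7 and 5 genes lower. Of the 18 expansins 13 had a negative difference, beside 7294 of 13286 genes in all. By limma 0 of these differences passed, and 2 lay below 0 at an unadjusted p under 0.05, beside 516 of 13286 genes. The expansin and root hair lists share 2 genes. For xyloglucan-modifying genes the medians were -0.121 on INA and -0.198 without it, with 5 and 4 genes lower. For class III peroxidases they were -0.082 on INA and -0.174 without it, with 19 and 21 of 55 genes lower. Of these 55 differences 0 passed, with 14 above 0 and 2 below at an unadjusted p under 0.05. The strongest damage response gene, AT5G60250, had 2.27, 2.37 and 2.09 in BLM and -2.95, -2.73 and -2.51 in CK, so its BLM+INA and BLM arrays overlapped.

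**Figure D3:**
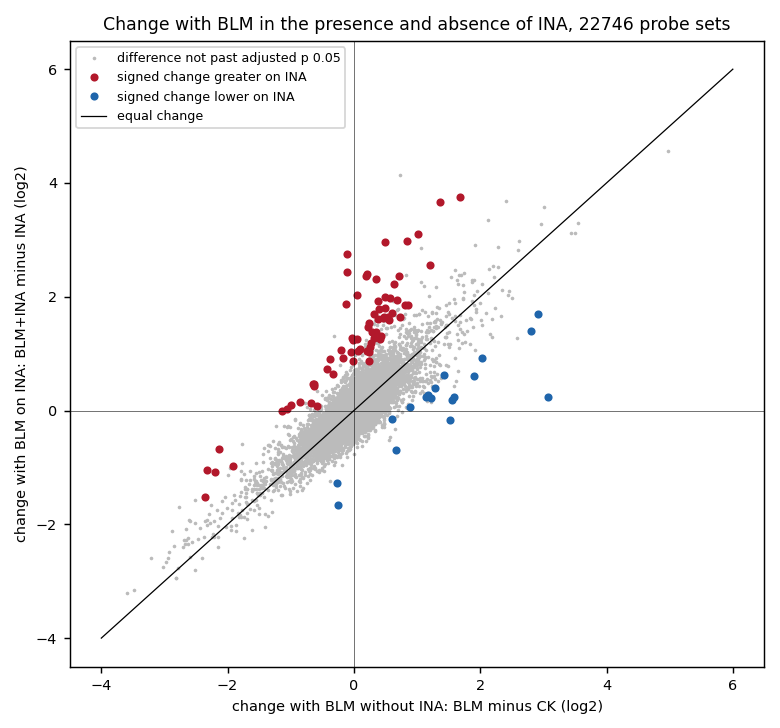
Change with BLM on top of INA (BLM+INA minus INA, log2, vertical axis) against change with BLM without INA (BLM minus CK, log2, horizontal axis) for 22746 probe sets. Grey points did not differ between the settings at an adjusted p of 0.05, the 69 red points lay above equal change (black line) and the 18 blue points below it, and most red points lay where the change on INA was positive.

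The difference between these changes, (BLM+INA minus INA) minus (BLM minus CK), passed for 87 probe sets (0.382%), 69 above 0 (0.303%) and 18 below 0 (0.0791%). By unadjusted p under 0.05 there were 1698. Of the 69, 58 were raised by BLM on INA. The count above 0 was 44 without INA replicate 1 and 45 without INA replicate 2, and the count below 0 was 30 without BLM+INA replicate 2. After quantile normalization of the centred values 45 passed, 26 of them above 0, so the excess of positive differences was smaller. That step sets the centred values of all arrays to 1 distribution, so it can itself alter the size of a difference. Its part in the smaller excess was not tested. With unmoderated variances 2 passed, and with a replicate block 170 did, 129 of them above 0. The named genes with the largest positive differences included WRKY53 and the heavy-metal domain genes AT5G52750 and AT5G52760. AT3G09020 had 2.14, 1.74 and 2.19 in BLM+INA, -0.09, -0.17 and 0.22 in INA, 0.05, -0.21 and 0.06 in BLM and -0.06, -0.12 and -0.05 in CK. Only the BLM+INA arrays were high, and the difference was 2.0 ± 0.18 (adjusted p = 3.02e-05). AT5G52760 had -0.37, -0.17 and 0.24 in BLM and -0.67, -0.59 and -0.53 in CK, so BLM raised it by 2.96 on INA and by 0.49 ± 0.16 without it, a difference of 2.46 ± 0.23. This probe set and that of AT1G24140 were dim, with a median level under 4 on the log2 scale, a class inferred from the precision of the deposited values, like 5583 probe sets in all. Leaving such probe sets out gave 64 differences, 46 above 0 and 18 below. WRKY53 had 0.06, 0.18 and 0.15 in BLM and -0.67, -0.72 and -0.76 in CK, a rise of 0.84 ± 0.18 beside 2.97 on INA. AT1G24140 had 1.81, 1.91 and 2.09 in BLM+INA, 0.03, -0.11 and -0.08 in INA, 0.08, -0.03 and 0.24 in BLM and -0.42, -0.34 and -0.45 in CK, a difference of 1.49 ± 0.15. AT1G10340 differed by 1.39 ± 0.18 (adjusted p = 0.00102) and the calmodulin-like gene AT3G01830 by 0.91 ± 0.15 (adjusted p = 0.0092). AT3G47480 (1.05 ± 0.21), AT4G11000 (0.88 ± 0.17) and CYP71B23 (0.99 ± 0.19) also passed, with calls lost in 9, 8 and 7 of 12 fits.

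Iron deficiency and anthocyanin genes had smaller median changes on INA than without it, and 1 gene of both lists together passed the test of the difference. Of the 10 iron deficiency genes 9 had a negative difference, beside 7294 of 13286 genes in all. At an unadjusted p under 0.05, 7 of the 10 lay below 0 and 0 above, beside 516 and 454 of all genes. The list medians were 0.504 on INA and 1.132 without it. Their mean was 0.32, 0.293 and 0.351 in BLM+INA, -0.29, -0.435 and -0.16 in INA, 0.351, 0.369 and 0.488 in BLM and -1.118, -0.795 and -0.632 in CK. BLM+INA arrays lay at or below the lowest BLM array, and INA arrays lay above CK arrays. For BHLH101 the change was 0.43 on INA and 1.59 ± 0.23 without it, a difference of -1.16 ± 0.33 that did not pass (adjusted p = 0.225). AT3G12900 was the 1 gene of this list whose difference passed, at -1.22 ± 0.19 (adjusted p = 0.00411), and it was lower in BLM+INA than in BLM by 0.75 (adjusted p = 0.00149 by limma). All 5 anthocyanin genes had negative differences, none past the threshold, with medians of 1.342 on INA and 2.152 without it. At an unadjusted p under 0.05, 4 of these 5 differences lay below 0. DFR had 2.35, 2.34 and 2.42 in BLM and -1.06, -1.39 and -0.94 in CK, and was lower in INA than in CK by 0.99 and lower in BLM+INA than in BLM by 1.38 (adjusted p = 0.00105 and 9.27e-06 by limma). AT5G03350, a legume lectin-like gene that INA alone raised by 4.94, had 2.23, 2.19 and 2.29 in BLM+INA, 1.37, 1.23 and 1.37 in INA, -1.92, -1.62 and -1.23 in BLM and -3.65, -3.69 and -3.51 in CK. BLM added 0.92 ± 0.13 to it on INA and 2.03 ± 0.13 without INA, a difference of -1.11, but after quantile normalization of the centred values its change on INA was -0.15 and did not pass (adjusted p = 0.481). COR15A changed more on INA. It had -0.02, 0.02 and 0.04 in BLM and 0.26, 0.22 and 0.35 in CK, a change of -0.26 ± 0.13 that did not pass, so its change of -1.28 on INA differed by -1.02 ± 0.19 (adjusted p = 0.0156), a call lost without CK replicate 2 or BLM+INA replicate 1.

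**Figure D4:**
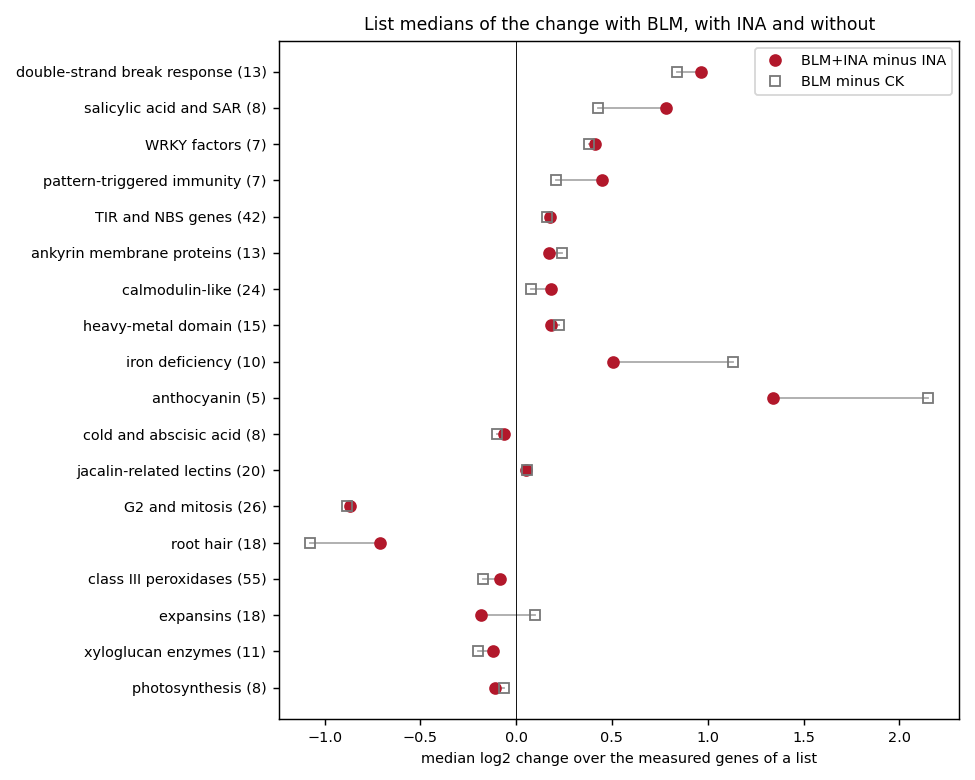
Median log2 change with BLM over the measured genes of 18 lists (number of genes in parentheses), with INA present (BLM+INA minus INA, filled circles) and without it (BLM minus CK, open squares). Salicylic acid genes had 0.78 on INA and 0.427 without it, iron deficiency genes 0.504 and 1.132, and G2 and mitosis genes -0.867 and -0.882.

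Across the defence lists, the median on INA was above that without it for salicylic acid genes (0.78 and 0.427), pattern-triggered immunity (0.447 and 0.208), WRKY factors (0.41 and 0.382), TIR and nucleotide-binding genes (0.178 and 0.159) and calmodulin-like genes (0.184 and 0.079). It was below it for ankyrin-repeat membrane proteins (0.171 and 0.239) and heavy-metal domain proteins (0.184 and 0.226). Gene by gene, these 2 lists did not change less on INA: their median differences were 0.008 and 0.03. The difference was above 0 for 8 of 13 ankyrin-repeat and 10 of 15 heavy-metal domain genes. For WRKY factors the median difference was 0.028. The TIR and nucleotide-binding median on INA ranged from 0.116 to 0.255 over 12 fits that each left out 1 array. That range spans the 0.159 without INA, so the order of these 2 medians was not stable. The difference was positive for 25 of 42 TIR and nucleotide-binding genes and for 18 of 24 calmodulin-like genes, beside 5992 of 13286 genes in all. In the fit over genes, 2 ankyrin-repeat, 2 calmodulin-like and 2 heavy-metal domain genes had a difference above 0 that passed, and in the salicylic acid list WRKY53 lay above 0 and AT5G03350 below it. By limma 0 of the 42 TIR and nucleotide-binding genes and 0 of the 7 genes of pattern-triggered immunity passed. At an unadjusted p under 0.05, 5 of the receptor genes lay above 0, and of the pattern-triggered immunity genes 3 lay above 0 and 1 below. Of all 13286 genes, 454 lay above 0 and 516 below at that threshold.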

How the data were processed

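Each biological replicate was 1 array of 1 colour, hybridized with biotin-labelled RNA from whole seedlings. The authors deposited log2 values made with RMA, per the submitters' processing notes, with no version. RMA subtracts background, sets all arrays to 1 distribution and combines the probes of a set. The deposited log2 values were also centred on each probe set's median over 12 arrays (row medians of 0 within 5e-07), a step read from the values. Base 2 is that of RMA.

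Of 22810 probe sets, 64 controls were set aside. A gene table paired 13513 of the 22746 others with exactly 1 gene, 503 with several and 8730 with none, so many well-known genes have no value under their name. Symbols came from a RefSeq table (assembly TAIR10.1), in which 77 of the 13513 had no match.

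A linear model in limma 3.58.1 (R 4.3.3) had the 4 group means over 12 arrays, with moderated variances and Benjamini-Hochberg adjustment per contrast. The fit over genes used the mean over probe sets. Classes of median level were inferred from the precision with which values were deposited: 5583 probe sets lay under 4 on the log2 scale, and 350 could not be read and were kept when dim probe sets were left out. Named genes were the 15 largest rises and 15 largest falls past the threshold without overlap, the 8 largest differences each way, and members of lists. For lists over 10 genes these were up to 6 called members with the largest changes and up to 2 others with the smallest p. CML30, AT5G24580, AT1G51090, EXPA9, EXLA1, XTH21, AT1G68850, PRX52, AT1G24110, JAL22, AT1G33790, AT2G25980, AT1G19715 and AT1G26250, the mitosis genes that did not pass, and extensin genes were named after their values were seen. All comparisons, members and lists were chosen with earlier results of these data known. Family membership of loci without a symbol came from general knowledge of the gene families, not from the gene table. In all, 417 genes in 31 lists were measured. Of the cysteine-rich receptor kinase list (42 genes) and the camalexin list (14 genes), 0 genes were measured under their name.

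The model was tested on 5 simulated tables of 22746 probe sets, 200 of them changed. It found 64% of 1.5-fold and 97.2% of 2-fold changes of BLM+INA against INA, and 3.56% and 4.7% of its calls were false. For the difference between settings these were 5.2% and 81.3%, and 3% and 5.57% of calls were false. The simulated noise was independent between arrays, and far fewer probe sets were changed than the 18.8% that passed in the data. These rates describe that setting and may not carry over to the data. No sequence was available here. The number of arrays limits the precision.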

Additional observations from a re-analysis of the deposited data

Results flagged for a closer look

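For 13 named genes the change with BLM differed between seedlings with INA and without it, by the test of that difference in limma (adjusted p under 0.05 over 22746 probe sets). Above 0 on the log2 scale were AT5G52760 (2.46), WRKY53 (2.13), AT5G52750 (2.1), AT5G18470 (2.0), AT3G09020 (2.0), AT3G60420 (1.66), AT3G48650 (1.53) and AT1G24140 (1.49). Below 0 were AT5G57760 (-1.37), AT3G12900 (-1.22), AT5G03350 (-1.11), COR15A (-1.02) and SAG29 (-0.81).

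AT5G18470 had 2.16, 1.74 and 2.29 in BLM+INA, -0.02, 0.23 and 0.38 in INA, -0.88, -0.41 and 0.02 in BLM and -0.49, -0.29 and -0.09 in CK, so it changed by 1.87 on INA and by -0.13 without it. AT3G48650 had 2.38, 1.76 and 2.06 in BLM+INA, 0.14, 0.02 and 0.29 in INA, -0.30, -0.02 and -0.20 in BLM and -0.65, -0.63 and -0.40 in CK. AT5G57760 moved in opposite directions, by -0.70 ± 0.17 on INA and by 0.67 ± 0.17 without it (limma, adjusted p = 0.00719 and 0.0108). SAG29, a sugar transporter gene that marks senescence, had 0.06, 0.12 and -0.15 in BLM+INA, -0.47, -0.82 and -0.54 in INA, 1.41, 1.43 and 1.51 in BLM and -0.06, -0.08 and 0.18 in CK. Leaving out 1 array at a time, the difference of SAG29 lost its call in 9 of 12 fits (-0.92 to -0.732), that of AT3G60420 in 4 (1.487 to 1.884) and that of COR15A in 2 (-1.125 to -0.845). The second probe set of AT3G60420 had a difference of -0.07 (adjusted p = 0.957). After quantile normalization of the centred values the differences of AT5G52750 (1.1), AT5G18470 (1.18) and AT3G60420 (0.89) no longer passed, and with unmoderated variances AT1G24140 was the 1 gene of the 13 that still did. The probe sets of AT5G52760, AT1G24140 and AT3G48650 were dim, with a median level under 4 on the log2 scale.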

How the results depend on the processing

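Counts moved with the threshold. With an adjusted p of 0.01, BLM+INA against INA gave 2569 probe sets (1308 higher, 1261 lower), BLM against CK 2254 (1065 and 1189), and the difference 42 (32 and 10). With at least a 2-fold difference the first comparison gave 632 (344 and 288) and the second 571 (259 and 312). In the lists, TIR and nucleotide-binding genes higher went to 7 with the adjusted p of 0.01. With the 2-fold minimum, the counts were 4 for TIR and nucleotide-binding genes and 4 for calmodulin-like genes higher, 1 for iron deficiency genes higher, and 11 for G2 and mitosis, 6 for root hair, 10 for peroxidase and 3 for expansin genes lower. For the difference, quantile normalization gave 45 (26 above 0) and unmoderated variances 2 (2 above, 0 below, with 1698 at an unadjusted p under 0.05 in the reported fit). The cause of these moves was not tested.

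Leaving out each array in turn gave 3196 to 4373 probe sets for BLM+INA against INA (1504 to 2152 higher, 1553 to 2221 lower). For BLM against CK it gave 2691 to 3895 (1254 to 1972 higher, the lowest without CK replicate 1, and 1437 to 1927 lower). For the difference it gave 59 to 124 (44 to 94 above 0, 14 to 30 below 0). The list counts ranged over 8 to 9 for double-strand break genes, 8 to 12 for TIR and nucleotide-binding genes, 8 to 10 for calmodulin-like genes, 5 to 8 for iron deficiency genes, 22 to 23 for G2 and mitosis genes, 11 to 15 for root hair genes, 17 to 21 for peroxidase genes and 6 to 7 for expansin genes.

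Whether replicate numbers pair the arrays was not settled, and the reported fit has no replicate block. Deviations of BLM+INA and INA arrays with the same number correlated at 0.176, 0.03 and 0.339, so not every pair was over 0.1, and BLM+INA replicate 2 correlated better with INA replicate 1 (0.122). For BLM and CK arrays the values were 0.136, 0.08 and 0.259, and each array correlated best with its own number. The actin 3′ minus 5′ signal was highest in replicate 3 of each of the 4 groups. So was that of the dap control, with 0.714 in BLM+INA, 0.792 in INA, 0.724 in BLM and 1.063 in CK. The replicates thus differed in a way that the 4 groups shared. With a replicate block, 5019 probe sets passed for BLM+INA against INA, all 4274 reported ones among them, and 170 for the difference (129 above 0, 41 below 0). Among 39 named genes, 1 result reversed: AT5G03350 stood at -0.15 after quantile normalization of the centred values (adjusted p = 0.481). Its cause was not tested. Over all alternatives, these 39 changes kept direction and call in 848 cases and lost the call in 6. The 848 include the fits without a BLM or CK array, in which the direction of these changes could not move. The 13 named differences kept their call in 214 cases and lost it in 30.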
